A study of Danio rerio with 15 samples.

Results

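Oxidative phosphorylation genes encode the respiratory chain and the ATP synthase of the mitochondrial inner membrane. Members were taken from the deposited table of read counts by symbol, as rows named for the subunits of complexes I (nduf), II (sdh), III (uqcr), IV (cox) and V (atp5), or for the subunits encoded in mitochondrial DNA. Rows whose symbol ends in a numbered suffix, such as uqcrc1_1, were left out. The symbols picked 93 of 47048 gene rows, of which 39 carry names of complex I, 9 of complex II, 8 of complex III, 20 of complex IV and 17 of complex V. All 93 are nuclear genes: the symbols for mitochondrially encoded subunits matched 0 rows, and those subunits were not analysed here, so nuclear and mitochondrial subunits could not be set against each other.

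RNA was taken from intact zebrafish embryos (Tropical 5D wildtype) that had been freed of their chorions. Exposure ran from 8 to 48 hours post fertilization in 0.5% methanol, with 47 uM of FBSA (perfluorobutane sulfonamide), PFBS (perfluorobutane sulfonic acid), PFPeA (perfluoropentanoic acid) or 42FTS (a fluorotelomer sulfonic acid), or with 0 uM in the Control group. All of these are short-chain per- and polyfluoroalkyl substances; FBSA ends in a sulfonamide and the others end in an acid, and FBSA and PFBS share the same fluorinated chain. Each of the 5 groups has 3 libraries, and each library is a pool of 10 embryos. The labels do not say whether the pools came from separate clutches, so the p-values measure the spread between pools. The comparisons ask whether any compound, and in particular the sulfonamide, moved the transcripts of the respiratory machinery.

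In the respiratory chain, complexes I and II pass electrons from NADH and succinate to coenzyme Q, complex III passes them on to cytochrome c, and complex IV hands them to oxygen. Complexes I, III and IV pump protons across the inner membrane, and complex V lets them flow back to make ATP. Most subunits are nuclear gene products, and all complexes but II also hold subunits made inside the mitochondrion. In a developing fish the muscle, heart, brain and the ionocytes of the skin are rich in mitochondria.

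Gene counts per library ran from 24249287 to 32686343. Control 3 and 42FTS 2 were the shallowest and had 9.92% and 9.94% of reads unaligned, against 6.32% to 6.73% in the other libraries. Levels are given as CPM, each library's counts scaled to a common total, with edgeR's TMM factors, and differences as log2 fold changes. A member is said to have risen or fallen where edgeR's quasi-likelihood test gave a p-value, adjusted by Benjamini-Hochberg over the 23874 genes tested, under 0.05. Of the 93 members 88 had enough counts to be tested. The other 5 (ndufa12, ndufb5, ndufs4, ndufa4l2 and ndufs8b) had at most 8 counts in any library. In whole embryos, fewer cells of a type and less RNA per cell cannot be told apart.

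FBSA moved few of these genes past the test. In FBSA over Control embryos 1 member rose, the complex IV isoform cox4i2, and 3 fell: cox6b1 of complex IV, ndufs1 of complex I and uqcrfs1 of complex III. The log2 changes were 0.57 in cox4i2, -0.89 in cox6b1, -0.24 in ndufs1 and -0.22 in uqcrfs1. These 4 are 4.55% of the tested members, against 9.53% of all genes tested in that comparison (5.28% rose and 4.25% fell). The members' share is below the background. DESeq2 called 10 members, 9 of them lower, which is 11.4% against 13% of all genes with that tool. The unadjusted p was under 0.05 for 27 members, or 30.7%, against 23.7% of all genes tested.

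The members leaned to the low side as a set. In FBSA over Control embryos 68 of the 88 tested members had a log2 change below 0, which is 77.3%, against 49.3% of all genes. The median log2 change of the members was -0.10, and that of all genes was 0.01. In 22 of the 88 all FBSA libraries lay below all Control libraries, against a background of 13.5% of genes, and in 3 members they lay above, 3.41% against a background of 14.5%. The counts and medians describe the set, and no test was made on it.

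The lean differed in size between the complexes. All 8 complex III members were below 0 (median log2 change -0.19), as were 15 of 17 of complex V (median -0.12), 28 of 34 of complex I (median -0.14) and 8 of 9 of complex II (median -0.08). Complex IV was split, with 9 of 20 members below 0 and a median of 0.00. This count weighs scarce rows like the others. Above 0 were cox7a1, cox5b1 and cox7a3, with only 93, 528 and 1852 counts summed over all libraries. Below 0 was cox4i1l, with 774. The difference between complexes was not tested.

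**Figure D1:**
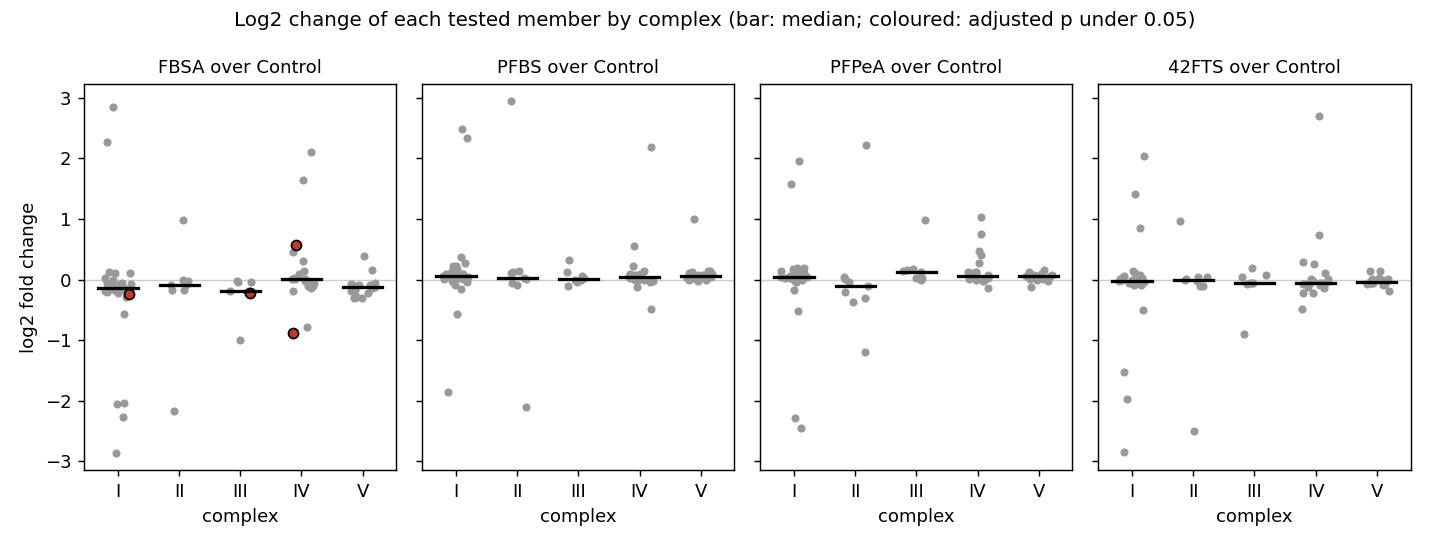
Log2 fold change of each of the 88 tested members (points) over Control, by complex (horizontal axis), for FBSA, PFBS, PFPeA and 42FTS; bars are medians, and coloured points had an adjusted p under 0.05. The only 4 coloured points are in FBSA, and the medians of complexes I, II, III and V lie below 0 there, between -0.19 and -0.08.

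Summed over all members, the level was 11443, 10250 and 11295 CPM in the FBSA libraries, against 11851, 11728 and 11394 CPM in the Control libraries. The FBSA mean was 94.3% of the Control mean; FBSA 1 was above Control 3, so the groups overlapped. The summed level of complex III was 802, 746 and 804 CPM in FBSA libraries, against 884, 873 and 841 CPM in Control libraries. Here every FBSA library was below every Control library, at a mean of 90.6% of Control. Complex II (91.4% of Control) and complex I (94.2%) were also without overlap, while complex V (94.2%) and complex IV (97.2%) overlapped. The gaps of complexes II and I were narrow. For complex II the highest FBSA library had 379 CPM and the lowest Control library had 381 CPM. For complex I these were 2341 and 2351 CPM. FBSA 2 was the lowest library for each of the 5 complexes.

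**Figure D2:**
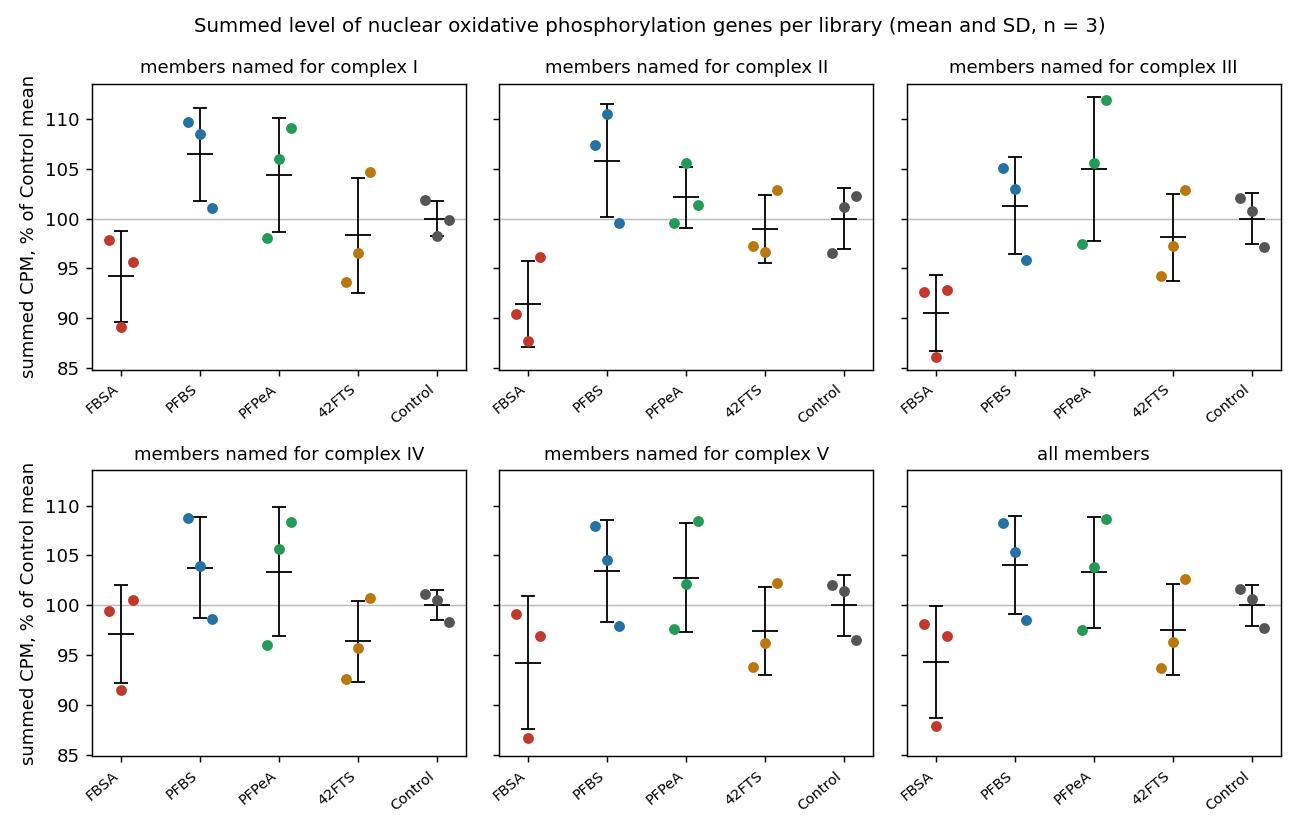
Summed TMM-scaled CPM of the members of each complex, and of all 93, in each library (points), as a percentage of the Control mean (vertical axis); horizontal ticks are means and bars are SD of 3 libraries. FBSA averaged 90.6% of Control for complex III and 97.2% for complex IV, and PFBS averaged 104.0% for all members.

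In the core of complex I that carries electrons, ndufs1 fell. This gene, for the largest of the iron-sulfur subunits, had 188, 166 and 187 CPM in FBSA libraries, against 206, 212 and 218 CPM in Control libraries. All FBSA libraries were below all Control libraries. The means were 180.0 ± 12.6 CPM in FBSA and 212 ± 5.84 CPM in Control embryos (SD, n = 3 each), a log2 change of -0.24 (SE 0.05, edgeR adjusted p = 0.0130). The call was lost under 4 of 14 alternatives, among them leaving out FBSA 2 (log2 change -0.18) or Control 3 (-0.22).

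Other subunits of complex I did not pass against Control. ndufs8a, an iron-sulfur subunit of the core, had 155, 136 and 152 CPM in FBSA libraries, against 162, 159 and 180.0 CPM in Control libraries, without overlap (log2 change -0.17, SE 0.07, edgeR adjusted p = 0.110). At the flavin-bearing entry of the complex, ndufv1 and ndufv2 both had log2 changes of -0.06. Differences between subunits were not tested. Among the accessory subunits around the core, ndufa7, ndufb10 and ndufb11 had log2 changes of -0.22, -0.15 and -0.14 with edgeR adjusted p-values of 0.0894, 0.259 and 0.253. The member with the most counts under a complex I name, ndufa4l, had 253, 235 and 247 CPM in FBSA libraries, against 253, 214 and 209 CPM in Control libraries, and its groups overlapped (log2 change 0.12, edgeR adjusted p = 0.279). In human cells the protein of the related gene NDUFA4 is a subunit of complex IV.

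Complex II, which is also an enzyme of the citric acid cycle, had no call against Control. sdhb, its iron-sulfur subunit, had 97.8, 96.7 and 99.6 CPM in FBSA libraries, against 110.2, 113 and 107 CPM in Control libraries. Every FBSA library was below every Control library, and below all 12 libraries of the other groups (log2 change -0.17, SE 0.06, edgeR adjusted p = 0.0882). sdha, the flavin subunit, had 178, 172 and 197 CPM in FBSA libraries, against 183, 198 and 202 CPM in Control libraries, with overlap (log2 change -0.09, edgeR adjusted p = 0.323). The symbol rule also took sdhaf1, sdhaf2, sdhaf3 and sdhaf4, which assemble complex II and are not part of it.

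In complex III the Rieske iron-sulfur subunit uqcrfs1 fell. It had 196, 173 and 185 CPM in FBSA libraries, against 213, 218 and 213 CPM in Control libraries, with no overlap. The means were 185 ± 11.4 CPM in FBSA and 215 ± 2.78 CPM in Control embryos (SD, n = 3 each), a log2 change of -0.22 (SE 0.06, edgeR adjusted p = 0.0290). The call was lost under 7 of 14 alternatives. Among them were leaving out FBSA 2 (log2 change -0.17), FBSA 3 (-0.22) or any of Control 1 (-0.22), Control 2 (-0.20) and Control 3 (-0.22). uqcr10, a small accessory subunit, had 87.4, 84.2 and 98.1 CPM in FBSA libraries, against 103, 103 and 99.9 CPM in Control libraries. Its groups did not overlap, and its log2 change of -0.18 (SE 0.06) had an edgeR adjusted p of 0.0883. The core protein gene uqcrc2b had a log2 change of -0.19 (SE 0.06, edgeR adjusted p = 0.0590), also without overlap.

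Complex IV held the 2 largest called changes, in opposite directions. cox4i2 encodes the alternative isoform of subunit 4, known in mammals as the isoform used at low oxygen and in lung. It had 8.89, 9.58 and 9.82 CPM in FBSA libraries, against 6.15, 6.67 and 6.22 CPM in Control libraries. All FBSA libraries were above all libraries of the other groups. The means were 9.43 ± 0.483 CPM in FBSA and 6.35 ± 0.283 CPM in Control embryos (SD, n = 3 each), a log2 change of 0.57 (SE 0.13, edgeR adjusted p = 0.0122), and the call was lost without Control 1 (log2 change 0.55, edgeR adjusted p = 0.0503). The main isoform, cox4i1, had 269, 251 and 273 CPM in FBSA libraries, against 273, 262 and 257 CPM in Control libraries, with overlap and a log2 change of 0.00 (SE 0.05).

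cox6b1 encodes a subunit on the face of complex IV that meets cytochrome c. It had 19.1, 10.8 and 23.2 CPM in FBSA libraries, against 34.7, 34.8 and 28.7 CPM in Control libraries. Every FBSA library was below every library of the other groups, and FBSA 2 was the lowest of all. The means were 17.7 ± 6.34 CPM in FBSA and 32.7 ± 3.52 CPM in Control embryos (SD, n = 3 each), a log2 change of -0.89 (SE 0.21, edgeR adjusted p = 0.0219). The call was lost under 5 of 14 alternatives, among them leaving out Control 1 (log2 change -0.84) or Control 2 (-0.84). Its paralogue cox6b2 had a log2 change of -0.03, and cox6a1, the member of complex IV with the most counts, had 352, 309 and 344 CPM in FBSA libraries, against 327, 345 and 329 CPM in Control libraries, with overlap.

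**Figure D3:**
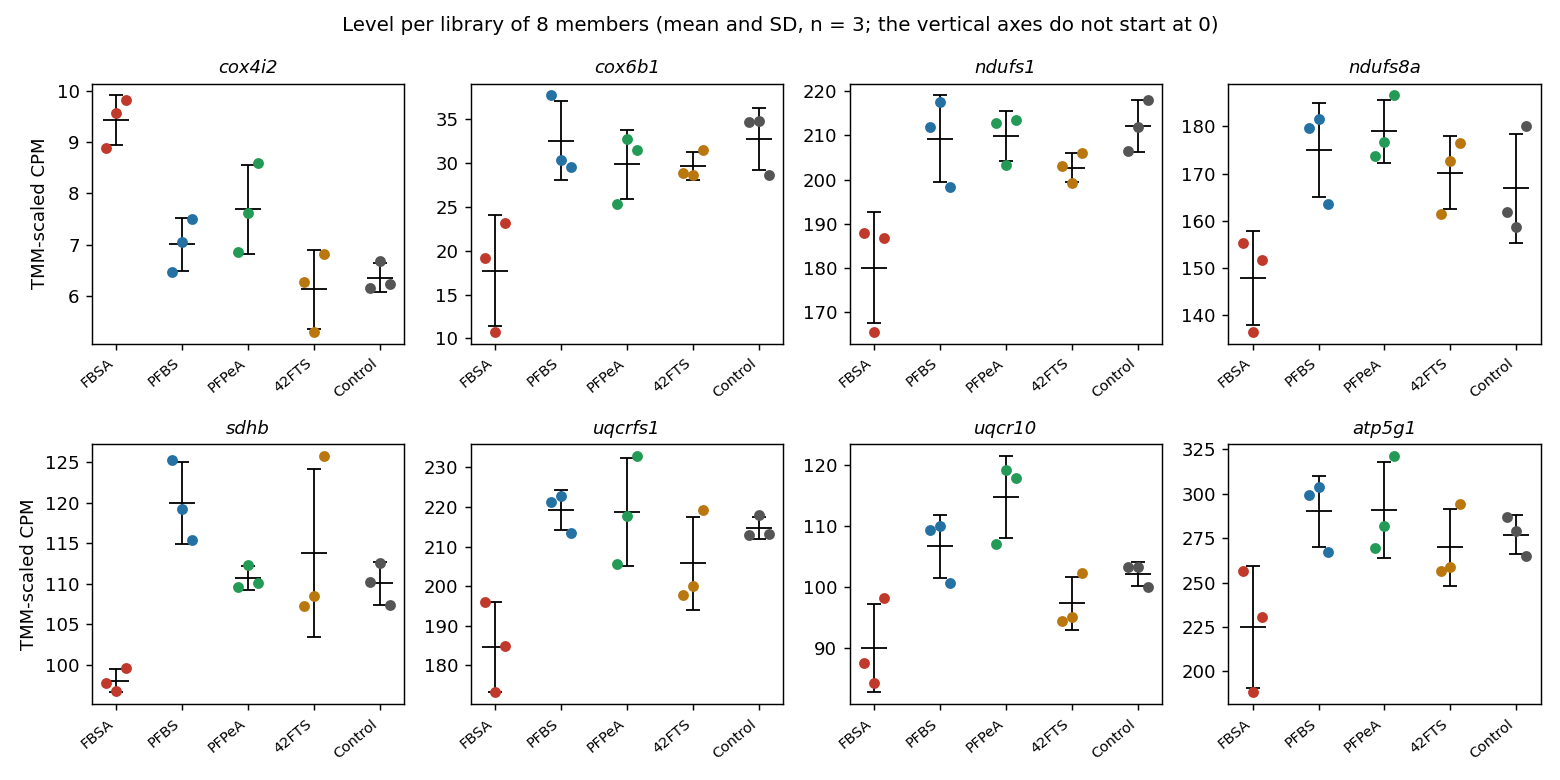
TMM-scaled CPM in each library (points) of 8 members, by group; horizontal ticks are means and bars are SD of 3 libraries, and the vertical axes do not start at 0. cox4i2 is highest in all FBSA libraries (8.89 to 9.82 CPM), and cox6b1, ndufs1, ndufs8a, sdhb and uqcrfs1 are lowest in all FBSA libraries.

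The ATP synthase had no call against Control, though 15 of the 17 members with complex V symbols were below 0. Of those above 0, atp5s (log2 change 0.39) now carries the symbol dmac2l, which is not a complex V name. atp5g1, a gene for the c subunit of the rotating ring, had 256, 188 and 231 CPM in FBSA libraries, against 287, 279 and 265 CPM in Control libraries, without overlap (log2 change -0.30, SE 0.10, edgeR adjusted p = 0.0760). The other genes for that subunit did not share one direction. atp5g3a had a log2 change of -0.18, and atp5g3b had one of 0.16, with 581, 548 and 580.0 CPM in FBSA libraries, against 522, 515 and 494 CPM in Control libraries. In atp5g3b the groups did not overlap, and its edgeR adjusted p was 0.125. atp5o, which joins the catalytic head to its stalk, had 332, 313 and 327 CPM in FBSA libraries, against 370, 357 and 348 CPM in Control libraries, without overlap (log2 change -0.14, edgeR adjusted p = 0.118). In the catalytic head, atp5a1 (the alpha subunit) averaged 1564 ± 114 CPM in FBSA and 1623 ± 54.2 CPM in Control embryos (SD, n = 3 each), with overlap and a log2 change of -0.05, and atp5b (the beta subunit) had a log2 change of -0.09, also with overlap.

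The acids moved no member past the test. In PFBS, PFPeA and 42FTS over Control embryos, edgeR called 0 of 88 members in each comparison, against a background of 0% of genes in each. DESeq2 also called 0 members in each, against 0.0251%, 0.0628% and 0.0503% of all genes in PFBS, PFPeA and 42FTS over Control. The unadjusted p was under 0.05 for 11 members in PFBS, 8 in PFPeA and 4 in 42FTS over Control, or 12.5%, 9.09% and 4.55% of the members, against 3.87%, 5.21% and 4.07% of all genes. The 95% interval of a member's log2 change reached, at the median, 0.17 to either side. The interval lay within 0.5 of 0 for 67 of 88 members in PFBS, 61 in PFPeA and 66 in 42FTS over Control.

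The lean of the acids was small and not the same in each. The median log2 change was 0.05 in PFBS over Control and 0.05 in PFPeA over Control, with 66 of 88 members above 0 in both, and it was -0.03 in 42FTS over Control, with 30 of 88 above 0. All 4 comparisons use the same Control libraries. In 13 members all PFBS libraries lay above all Control libraries, which is 14.8% against a background of 4.95%, and in 0 members they lay below, against a background of 4.36%. For PFPeA 7 members lay above, 7.95% against a background of 5.8%, and 0 below, against 4.89%. For 42FTS 2 members lay above, 2.27% against a background of 4.61%, and 7 lay below, 7.95% against 5.14%. Single libraries set much of this: the median log2 difference of the members from the Control mean was 0.11, 0.06 and -0.03 in the PFBS libraries, -0.04, 0.06 and 0.13 in the PFPeA libraries and -0.10, -0.05 and 0.04 in the 42FTS libraries. It was -0.07, -0.18 and -0.07 in the FBSA libraries and 0.03, 0.00 and -0.04 in the Control libraries, so FBSA 2 was lowest and 42FTS 1 was below the other FBSA libraries.

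Set against PFBS, the acid with the same fluorinated chain, FBSA embryos had 12 members that fell and 1 that rose. These 13 are 14.8% of the tested members, against 10.1% of all genes in FBSA over PFBS (5.17% rose and 4.98% fell). Among the 12 were ndufa7, ndufb11, ndufs1 and ndufs8a of complex I, sdhb of complex II, uqcr10 and uqcrfs1 of complex III, cox6b1 of complex IV, and atp5f1, atp5g1 and atp5ib of complex V. DESeq2 called 25 members, 28.4% against 14% of all genes. The unadjusted edgeR p was under 0.05 for 36 members, 40.9% against 24.6% of all genes. The member that rose was cox4i2 (log2 change 0.43, SE 0.13, edgeR adjusted p = 0.0450). The call of cox4i2 was lost under 8 of 13 alternatives, among them leaving out any 1 FBSA or PFBS library (log2 changes between 0.38 and 0.48). In 38 members all FBSA libraries lay below all PFBS libraries, 43.2% against a background of 13.7%. Of the 88 members 76 were below 0, which is 86.4% against 49.1% of all genes. The median log2 change was -0.16, and that of all genes was 0.01. PFBS itself had 66 of 88 members above 0 over Control. Without FBSA 2, PFBS 2 or PFBS a, 2 members were called in each case. The share of all genes called in those smaller fits is not given.

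sdhb had the smallest p-value of the members in FBSA over PFBS. It had 97.8, 96.7 and 99.6 CPM in FBSA libraries, against 125, 119 and 115 CPM in PFBS libraries, with no overlap. Its log2 change was -0.29 (SE 0.06, edgeR adjusted p = 0.00572), and it kept its call under all 13 alternatives, with log2 changes between -0.32 and -0.26. ndufa7, an accessory subunit, had 20.8, 19.0 and 19.9 CPM in FBSA libraries, against 24.6, 24.4 and 24.8 CPM in PFBS libraries, and these too did not overlap (log2 change -0.31, SE 0.08, edgeR adjusted p = 0.0183). atp5ib, a gene for subunit e of the ATP synthase, had 12.2, 10.9 and 13.2 CPM in FBSA libraries, against 25.8, 47.7 and 16.1 CPM in PFBS libraries. Its call (log2 change -1.31, SE 0.36, edgeR adjusted p = 0.0413) was lost under 9 of 13 alternatives. Among them were leaving out PFBS a (log2 change -0.79) and each of the other single-library omissions in these groups but that of PFBS b. Another was adding the counts of atp5ib_1 and atp5ib_2 (11.6% and 18.7% of the summed counts) to its row (log2 change -0.89, edgeR adjusted p = 0.0537). atp5f1, subunit b of the stalk, had 281, 252 and 301 CPM in FBSA libraries, against 361, 337 and 311 CPM in PFBS libraries, without overlap (log2 change -0.28, SE 0.08, edgeR adjusted p = 0.0466), and its call was lost without FBSA 1, FBSA 2, PFBS 2 or PFBS a, at log2 changes between -0.28 and -0.20.

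Set against PFPeA, FBSA embryos had 9 members that fell and 0 that rose. Of all genes in FBSA over PFPeA 8.26% were called (4.08% rose and 4.18% fell), against 9 of the 88 members. Among the 9 were ndufb10, ndufs1 and ndufs8a of complex I, uqcr10 and uqcrfs1 of complex III, cox6b1 of complex IV, and atp5g1 and atp5o of complex V. uqcr10 had 87.4, 84.2 and 98.1 CPM in FBSA libraries, against 107, 119 and 118 CPM in PFPeA libraries. There was no overlap, and the log2 change was -0.35 (SE 0.06, edgeR adjusted p = 0.00449). DESeq2 called 20 members, 22.7% against 11.9% of all genes. The unadjusted edgeR p was under 0.05 for 39 members, 44.3% against 22.9% of all genes. In 31 members all FBSA libraries lay below all PFPeA libraries, 35.2% against a background of 13.4%. Without FBSA 2 or PFPeA 3 only 1 member was called, and without PFPeA 2 it was 2. No share of all genes is given for those smaller fits. The call of cox6b1 was lost under 10 of 14 alternatives, with a log2 change of -0.49 without FBSA 2.

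Set against 42FTS, FBSA embryos had 1 member that rose and 2 that fell, 3.41% of the tested members against 9.8% of all genes in FBSA over 42FTS (5.69% rose and 4.11% fell). cox4i2 had 8.89, 9.58 and 9.82 CPM in FBSA libraries, against 6.28, 5.30 and 6.82 CPM in 42FTS libraries, without overlap (log2 change 0.62, SE 0.13, edgeR adjusted p = 0.00801). cox6b1 (log2 change -0.75, edgeR adjusted p = 0.0457) and sdhb (log2 change -0.22, edgeR adjusted p = 0.0304) fell. The call of cox6b1 was lost under 9 of 14 alternatives, with a log2 change of -0.49 without FBSA 2. DESeq2 called 8 members, 9.09% against 13.5% of all genes. The unadjusted edgeR p was under 0.05 for 15 members, 17.0% against 24.2% of all genes, which is below the background. In 16 members all FBSA libraries lay below all 42FTS libraries, 18.2% against a background of 13.4%. Without FBSA 2 or 42FTS 3 only cox4i2 was called, and without FBSA 1 the count was 6. Shares of all genes called in those smaller fits are not given.

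**Figure D4:**
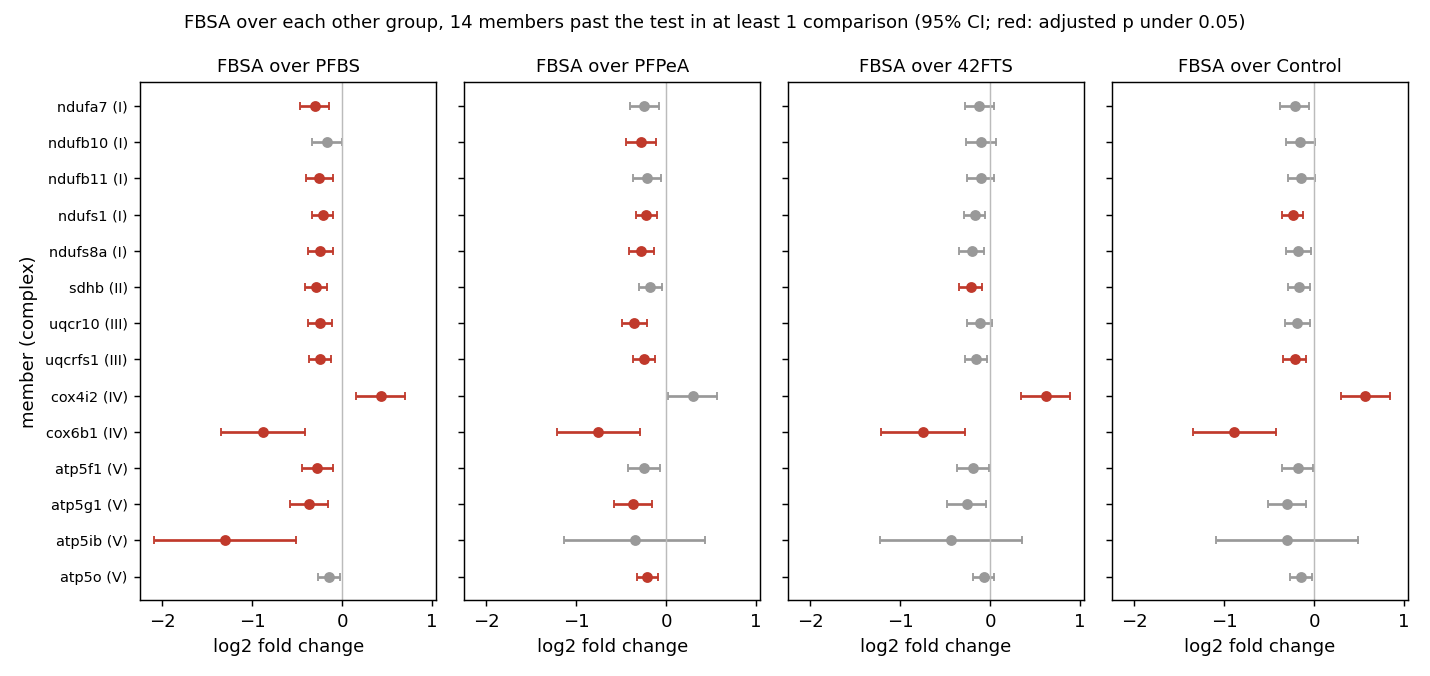
Log2 fold change (horizontal axis) of 14 members called in at least 1 comparison with FBSA, in FBSA over PFBS, PFPeA, 42FTS and Control; points are edgeR estimates, bars are 95% intervals, and red marks an adjusted p under 0.05. cox4i2 is the only one above 0, at 0.57 over Control, and cox6b1 is red in each comparison, between -0.89 and -0.75. The calls of cox6b1 over PFPeA and 42FTS were lost under 10 and 9 of 14 alternatives.

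Among the acids themselves edgeR called 0 of 88 members in PFPeA over PFBS, 42FTS over PFBS and 42FTS over PFPeA, against a background of 0% of genes, and DESeq2 called 0 members as well, against 0.0586%, 0.0461% and 0.101% of all genes. The unadjusted p was under 0.05 for 1, 7 and 7 members in these comparisons, 1.14%, 7.95% and 7.95%, against 4.83%, 4.39% and 6.82% of all genes. The median log2 change was 0.00 in PFPeA over PFBS, -0.09 in 42FTS over PFBS and -0.08 in 42FTS over PFPeA. In these comparisons 50, 77 and 72 of the 88 members were below 0. These are 56.8%, 87.5% and 81.8%, against 49.1%, 52.3% and 53.9% of all genes. A lean of the set was thus not particular to comparisons with FBSA. A test for any difference among the 5 groups called 3 members, cox4i2, sdhb and uqcr10 (edgeR adjusted p = 0.0283, 0.0455 and 0.0218), 3.41% against 6.38% of all genes, and DESeq2 called 14, 15.9% against 13.4%. Without FBSA 2 that test called 0 members, and without FBSA 1, PFBS a, PFPeA 2, PFPeA 3 or Control 3 it called 1. For those smaller fits the share of all genes called is not given.

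Genes that build or feed the chain were read from other lists. In FBSA over Control embryos the mitochondrial ribosome, which makes the subunits encoded in mitochondrial DNA, had 0 of 70 tested genes called by edgeR, with 53 below 0 (75.7%, against 49.3% of all genes) and a median log2 change of -0.09. The unadjusted p was under 0.05 for 8 of them, 11.4% against 23.7% of all genes, and DESeq2 called 2, 2.86% against 13%. Of 17 tested complex I assembly genes 1 rose and 2 fell, 17.6% called against 9.53% of all genes. Their median log2 change was 0.01, with 7 below 0. ndufaf7, a mitochondrial methyltransferase needed to assemble complex I, rose, with 14.7, 25.4 and 14.7 CPM in FBSA libraries, against 4.47, 6.52 and 5.82 CPM in Control libraries (log2 change 1.71, SE 0.20, edgeR adjusted p = 0.000172). All its FBSA libraries were above all Control libraries, and FBSA 2 was the highest. The genes that fell were foxred1 (log2 change -0.61, edgeR adjusted p = 0.0184) and ecsit (log2 change -0.34, edgeR adjusted p = 0.0403), which both encode assembly factors.

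Of 8 tested carriers and pores 2 rose and 0 fell in FBSA over Control embryos, where 9.53% of all genes were called. The list did not lean upward as a set: 5 of the 8 were below 0, with a median log2 change of -0.02. slc25a5, which swaps ADP for ATP across the inner membrane, had 6018, 5833 and 5967 CPM in FBSA libraries, against 4923, 5211 and 5057 CPM in Control libraries. These did not overlap, and the log2 change was 0.23 (SE 0.04, edgeR adjusted p = 0.00436). vdac2, a pore of the outer membrane, had a log2 change of 0.17 (SE 0.04, edgeR adjusted p = 0.0265). Among 9 tested regulators of mitochondrial biogenesis 1 fell, 11.1% against 9.53% of all genes, and 7 of the 9 were below 0. It was esrrga, an estrogen-related receptor known in mammals to drive respiratory chain genes. esrrga had 33.4, 28.9 and 32.8 CPM in FBSA libraries, against 43.4, 40.6 and 46.7 CPM in Control libraries, without overlap (log2 change -0.46, SE 0.09, edgeR adjusted p = 0.00568). Of 19 tested genes of the citric acid cycle and pyruvate dehydrogenase, mdh1aa rose (log2 change 0.18, edgeR adjusted p = 0.0437) and mdh1ab fell (log2 change -0.40, edgeR adjusted p = 0.0345), both genes for the cytosolic malate dehydrogenase. These 2 are 10.5% of the tested list, against 9.53% of all genes, and 13 of the 19 were below 0. Over all genes in FBSA over Control, 23.7% had an unadjusted p under 0.05 and DESeq2 called 13%. edgeR called 0 of 5 tested assembly genes of complex III, 0 of 22 of complex IV and 0 of 11 of coenzyme Q synthesis, with 2, 2 and 0 at an unadjusted p under 0.05, and DESeq2 called 0 in each. In these lists 2, 9 and 6 genes were below 0, with median log2 changes of 0.03, 0.04 and -0.03. edgeR also called 0 of 4 assembly genes of complex V, 0 of 15 genes of mitochondrial DNA upkeep and 0 of 7 electron carriers and further subunits, with 2 of each at an unadjusted p under 0.05, and DESeq2 called 2, 1 and 1. Here 3, 9 and 5 genes were below 0, with medians of -0.20, -0.04 and -0.11. Among the electron carriers cycsb, a cytochrome c gene, had 154, 140 and 171 CPM in FBSA libraries, against 192, 175 and 191 CPM in Control libraries, without overlap, and edgeR did not call it over Control (log2 change -0.26, adjusted p = 0.122).

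Markers of cell types moved in the same comparison. edgeR called 87.5% of neuron, 40.0% of ionocyte, 33.3% of heart and 12.5% of skeletal muscle markers, against 9.53% of all genes. DESeq2 called 13% of all genes, and 23.7% had an unadjusted p under 0.05. In FBSA over Control embryos 7 of 8 neuron markers fell, and their summed level was 2792 to 3162 CPM in FBSA libraries, against 3483 to 3581 CPM in Control libraries, with the largest log2 changes in elavl4 (-0.63), tubb5 (-0.45) and gap43 (-0.40). Of 10 tested ionocyte markers 4 rose, at a summed 274 to 327 CPM in FBSA libraries, against 174 to 196 CPM in Control libraries, led by trpv6 (1.57), slc12a10.2 (1.19) and slc4a1b (1.15). Of 9 heart markers 3 rose, at a summed 1407 to 1657 CPM in FBSA libraries, against 1057 to 1233 CPM in Control libraries: nppa (1.38), actc1a (0.41) and myl7 (0.29). Of 16 skeletal muscle markers 2 fell, acta1b (-0.80) and acta1a (-0.58), and the list's summed level overlapped, at 71053 to 80589 CPM in FBSA libraries, against 75541 to 76918 CPM in Control libraries. That list did not lean to either side, with 8 of the 16 below 0 and a median log2 change of 0.01. DESeq2 called 5 of them, 31.2%, and 6 had an unadjusted p under 0.05, 37.5%. edgeR called 0 of 7 tested red blood cell markers, with 1 at an unadjusted p under 0.05 and 1 called by DESeq2. No marker on these lists was at 0 in all libraries, and their part in the result was not tested.

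Reads of some members were split with rows of the same symbol and a number, and 20 such rows matched the symbols. For uqcrc1, a core protein of complex III, 68.0% of the counts of both rows lay in uqcrc1_1. The uqcrc1 row alone had 42.0, 32.5 and 36.1 CPM in FBSA libraries, against 53.7, 39.5 and 34.5 CPM in Control libraries, with overlap (log2 change -0.21, edgeR adjusted p = 0.550). Summed over both rows it had 123, 101 and 121 CPM in FBSA libraries, against 131, 139 and 151 CPM in Control libraries, without overlap. When the counts of such rows were added to their stem before the fit, a choice made after seeing the data, uqcrc1 fell in FBSA over Control (log2 change -0.29, SE 0.07, edgeR adjusted p = 0.0147). uqcrc2b then also passed (log2 change -0.19, edgeR adjusted p = 0.0468), which makes 6 called members in that comparison. The share of all genes called in the fit with added rows is not given.

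The authors' deposited table lists 1909 genes and 5 of the members. For uqcrc1 that table gives 205, 177 and 199 TPM (a level per transcript length) in FBSA samples, against 238, 240.2 and 240.3 TPM in Control samples, with a log2 ratio of -0.25 and a Q value of 0.0162. For ndufa4 the authors' deposited table gives 41.4, 34.8 and 52.2 TPM in FBSA samples, against 67.3, 64.5 and 71.3 TPM in Control samples, with a log2 ratio of -0.60 and a Q value of 0.000164. In the count table the row ndufa4 instead had 1.40, 1.3 and 1.53 CPM in FBSA libraries, against 2.39, 2.62 and 12.6 CPM in Control libraries, and it was not called (log2 change -2.06, SE 1.12, edgeR adjusted p = 0.306). FBSA had the lowest group mean of both genes in either table, and the count rows spread more between libraries. The authors' deposited table also lists ndufs1 (log2 ratio -0.26, Q value 0.0212), uqcrfs1 (-0.23, 0.0347) and atp5g1 under its current symbol atp5mc1 (-0.31, 0.0181). For PFBS, PFPeA and 42FTS over Control every Q value of the 5 members in the authors' deposited table is 1.0. Members that changed in no comparison may not be listed, so this contrast with FBSA may follow from the choice of rows. Neither cox4i2 nor cox6b1 is among its rows.

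On the authors' TPM scale, which is per transcript length, the levels of these 5 members can be set side by side. In Control samples of the authors' deposited table atp5g1 had 576 to 607 TPM, uqcrc1 238 to 240.3 TPM, uqcrfs1 206 to 211 TPM, ndufs1 107 to 116 TPM and ndufa4 64.5 to 71.3 TPM. These ranges do not overlap, so the order holds in each Control sample.

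**Figure D5:**
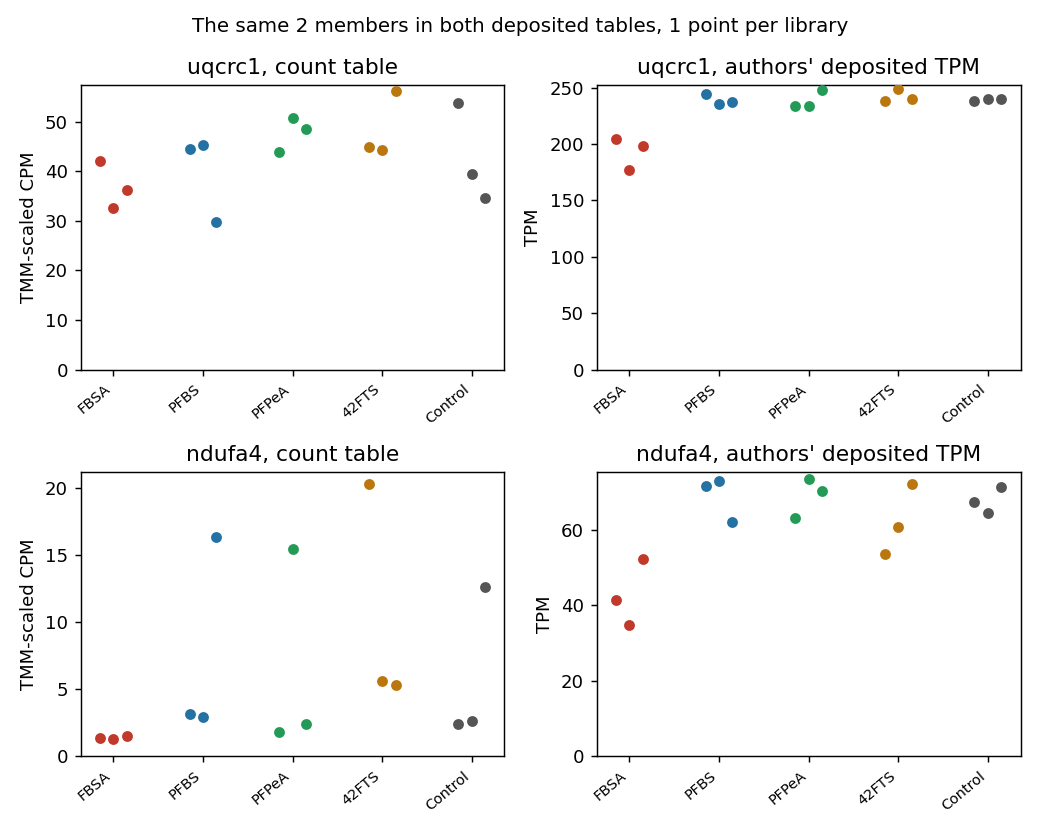
Level of uqcrc1 (top) and ndufa4 (bottom) in each library, as TMM-scaled CPM from the count table (left) and as the authors' deposited TPM (right), by group; each point is 1 library and the axes start at 0. The TPM points of FBSA lie below those of all other groups for both genes (177 to 205 TPM for uqcrc1 and 34.8 to 52.2 TPM for ndufa4), and the CPM points of ndufa4 range from 1.3 to 20.3.

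Among members with a mean of at least 1 CPM, most of the largest fitted changes were in ones whose level jumped between libraries of the same group. Of these 84 members 9 had a highest library over 5 times the lowest, 10.7% against 6.56% of 18850 genes: ndufa1, ndufa4, ndufa8, ndufb4, ndufb9, ndufs7, sdhc, uqcrq and cox7a3. ndufb9, an accessory subunit of complex I, had 67.9, 6.26 and 66.6 CPM in FBSA libraries, against 6.98, 6.58 and 5.86 CPM in Control libraries. FBSA 2 was within the Control range and the other FBSA libraries were above it, and its log2 change of 2.85 (SE 1.27) had an edgeR adjusted p of 0.205. ndufa8 had 1.33, 1.06 and 1.31 CPM in FBSA libraries, against 1.59, 1.22 and 24.4 CPM in Control libraries, so Control 3 alone was high (log2 change -2.86, SE 1.32, edgeR adjusted p = 0.222). With the counts of ndufa8_1 added its log2 change was -1.74 (SE 1.19, edgeR adjusted p = 0.405). ndufs7, an iron-sulfur subunit of the core, had 3.75, 17.9 and 2.12 CPM in FBSA libraries, against 29.2, 34.9 and 34.0 CPM in Control libraries, without overlap (log2 change -2.04, SE 0.84, edgeR adjusted p = 0.167). Its second row ndufs7_1 had 20.9 CPM in FBSA 1 and 1.44 to 3.80 CPM elsewhere, and with its counts added the log2 change of ndufs7 was -1.08 (SE 0.66, edgeR adjusted p = 0.340). The other large changes at a mean of at least 1 CPM that were not called were, besides ndufa4, ndufb4 (-2.27), ndufa1 (2.27), cox7a3 (2.11), uqcrq (-0.996) and cox4i1l (-0.79), with edgeR adjusted p-values of 0.0881, 0.198, 0.159, 0.563 and 0.212. Of the members under 1 CPM, sdhaf2, cox7a1 and sdhda had log2 changes of -2.17, 1.64 and 0.98, with edgeR adjusted p-values of 0.0882, 0.490 and 0.195. Most members were steadier: the median ratio of highest to lowest library was 1.34, and 56 of 84 were under 1.5. Without the 9 the median log2 change in FBSA over Control was still -0.10, with 62 of 79 members below 0.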

How the data were processed

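The authors deposited whole-number read counts per gene, not normalized, for 15 libraries; oligo(dT) beads had pulled down the RNA, per the labels' protocols. The submitters' processing notes give GRCz11 as the build and, with no role or version, DESeq2, RSEM, Bowtie2, HTSeq and HISAT2. Use of strand in counting: not given in the sources used here. Reads of antisense or overlapping genes can therefore be mixed. The authors' deposited second table holds TPM, log2 ratios and Q values (adjusted p-values) for 1909 genes, and 45 further value columns were not used. The count header names 2 PFBS columns alike, so these are called PFBS a and PFBS b and carry no number. Genes with low counts were filtered with edgeR 4.0.16 (filterByExpr). Counts were scaled by TMM and fitted with 1 term per group over all libraries with robust quasi-likelihood (R 4.3.3), and p-values were adjusted within each comparison over 23874 genes. The fit was tested on simulated counts, with changed genes drawn from those at a mean of at least 1 CPM. For FBSA over Control it called 10.4%, 32.8% and 56.1% of 67, 67 and 66 genes changed 1.25-fold, 1.5-fold and 2-fold, up or down. It made 3 false calls. Far fewer genes were changed in this simulation than the 2274 called in the real comparison. The adjustment is stricter when few genes change, so these shares do not measure the sensitivity of the real comparison. DESeq2 1.42.0 was an alternative. Library medians used log2(CPM + 0.5). Named are the called members, the member with the most counts in each complex, the 10 largest FBSA changes at a mean of at least 1 CPM and their copies, and up to 3 genes of each other list. A few more were named after their values were seen: ndufv1, ndufv2, cox4i1, cox6b2, uqcrc1, uqcrc2b, atp5g3a, atp5g3b, atp5b, sdhaf2, sdhda, cox7a1, cycsb and the 9 members of wide spread. A called member is not reported here. Members and lists were chosen with earlier results of these data known. Replicate numbers were not treated as pairs, since the labels do not say that equal numbers share a clutch or batch. Over all genes the deviations of same-numbered libraries were little correlated, which cannot exclude pairing.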

Additional observations from a re-analysis of the deposited data

How the results depend on the processing

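Leaving out 1 library at a time gave 2 to 7 called members in FBSA over Control, 2 to 16 in FBSA over PFBS, 1 to 12 in FBSA over PFPeA, 1 to 6 in FBSA over 42FTS and 0 to 5 in the test over the 5 groups. A fit with fewer libraries has less power for every gene. Apart from DESeq2, the share of all genes called under each alternative is not given. A change in these counts therefore cannot be read as particular to the members. For FBSA over Control the count was 10 with DESeq2, 1 in a fit of only both groups and 1 without Control 3 and 42FTS 2 together. For FBSA over PFBS it was 25 with DESeq2 and 2 in a fit of only both groups. For FBSA over PFPeA it was 20 with DESeq2, 0 in a fit of only both groups and 5 without Control 3 and 42FTS 2. For FBSA over 42FTS it was 5 with DESeq2 size factors in edgeR, 8 with DESeq2, 0 in a fit of only both groups and 6 with suffixed rows added to their stem. The test over the 5 groups gave 5, 14, 0 and 6 members with those size factors, DESeq2, the pair left out and the suffixed rows added. The acids gave 0 under every alternative run. Of 29 calls of members in single comparisons 28 were lost under at least 1 alternative, and 0 reversed. Each call met 13 or 14 alternatives, many of them with fewer libraries, so some loss is likely for any call near the threshold. The rate of loss among all called genes is not given, and the cause was not tested. With replicate number as a block over FBSA, PFPeA, 42FTS and Control, 4 members were called in FBSA over Control, and cox6b1 was lost (log2 change -0.91). Same-numbered libraries had correlations of deviations between -0.06 and 0.09, and differently numbered ones between -0.12 and 0.13. These are correlations over all genes, so they cannot exclude a clutch or batch shared by equal numbers. The members' median log2 change stayed between -0.13 and -0.08 in FBSA over Control with single libraries left out. Medians of mitochondrially encoded members had no value. Intervals cover the spread between libraries only.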

Other observations

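Of rows from mitochondrial DNA, only those of its 2 ribosomal RNAs were read here, which oligo(dT) selection does not aim to keep. Coding genes of mitochondrial DNA under symbols other than those of the rule were not looked for. mt-rnr2 had 5858, 7870 and 7591 CPM in FBSA libraries, against 4614, 5711 and 5954 CPM in Control libraries, with overlap (log2 change 0.39, SE 0.16, edgeR adjusted p = 0.166). mt-rnr1 had 117, 139 and 131 CPM in FBSA libraries, against 106, 108 and 99.5 CPM in Control libraries, without overlap (log2 change 0.31, SE 0.10, edgeR adjusted p = 0.0570). Neither was called. Together they took 0.576% to 0.789% of gene counts in FBSA libraries, against 0.480% to 0.614% in Control libraries.

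Almost all reads of 3 complex I subunits lay in a suffixed row. It held 99.9% of the counts of ndufa12, ndufb5 and ndufs4, each summed with its stem. ndufb5 summed over both rows had 2.22, 22.04 and 21.6 CPM in FBSA libraries, against 3.03, 28.3 and 51.9 CPM in Control libraries. ndufa12 had 37.3, 2.13 and 24.5 CPM in FBSA libraries, against 21.6, 37.5 and 21.7 CPM in Control libraries. The groups overlapped in both genes, with Control libraries of ndufa12 closer together than its FBSA libraries, and with the rows added the edgeR adjusted p was 0.721 for ndufb5 and 0.907 for ndufa12 in FBSA over Control.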
